A study of Mus musculus with 8 samples.

Results

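Imprinted genes are transcribed from 1 parental copy in at least some tissues, and 50 of them were listed for description across 8 mouse follicles. Gene symbols matched 46 of the 50 in both count tables, among 21997 genes that the tables share. Of these 46, 25 are listed as expressed from the paternal copy and 20 from the maternal copy, and Gnas from either depending on the transcript. Class names below follow this listing, and the copy read in follicles was not tested. Magel2, Ascl2, Rasgrf1 and Calcr were not analysed here. The members came from textbook lists of imprinted domains.

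Each library held polyadenylated RNA of single follicles, which were teased from C57BL/6 ovaries with a needle, and the cDNA was made with a SMARTer Ultra Low Input protocol. The groups were SAF-TF, small antral follicles from transplanted female germline stem cells (FGSCs); SAF-WT, small antral follicles of wild type mice; PF-TF, preantral follicles from transplanted FGSCs; and PF-WT, preantral follicles of wild type mice, with 2 libraries each. A preantral follicle is an oocyte wrapped in layers of granulosa cells, and a small antral follicle has opened a fluid-filled cavity. The labels give neither the age of the mice nor the transplant hosts, nor which part of a TF follicle, oocyte or somatic cells, came from transplanted cells. It is also not stated that replicate follicles came from different mice, so p-values below measure the spread between these libraries and no more.

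Imprinting rests on differentially methylated regions. Most are methylated in the growing oocyte by DNMT3A and its partner DNMT3L, a few in the male germline, and after fertilisation ZFP57 with TRIM28 protects them while the rest of the genome loses methylation. Paternally expressed genes of fetal growth such as Igf2 and Mest tend to promote growth, and maternally expressed ones such as H19, Igf2r, Grb10 and Phlda2 tend to restrain it. The follicle joins an oocyte that is writing maternal imprints to somatic cells that carry both parental imprints. The counts do not separate the parental copies, so every value below is a total over both copies and says nothing of which copy was read.

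RefSeq start sites on GRCm38.p6 were found for 39 of the 46 members, with 62 windows reaching from 250 bases before to 50 bases after a start. These windows held a median of 15 CG dinucleotides, against 7 over 32851 windows of 27025 genes. The hexamer TGCCGC, the core letters recognised by ZFP57, stood on either strand in 22.6% of the members' windows, against 11.6% of all windows. The hexamer itself holds a CG, and its share was not compared at equal CG content. Windows of a gene can also overlap, as do the matching Mest windows that begin at bases 30737800 and 30737803 of chromosome 6. A match is a description of these letters and not a binding site. Windows of the genes on which the comparisons below turn most are shown here, though not every window of Mest and Grb10. They run 5′ to 3′ on the strand of the gene, with CG in capitals. Mest and Zdbf2 were the members whose stage effect differed between sources, Grb10 passed the test in 3 comparisons, and Zrsr1 is a retrogene with a parent copy elsewhere in the genome.
Mest (chr6:30737800-30738099, + strand): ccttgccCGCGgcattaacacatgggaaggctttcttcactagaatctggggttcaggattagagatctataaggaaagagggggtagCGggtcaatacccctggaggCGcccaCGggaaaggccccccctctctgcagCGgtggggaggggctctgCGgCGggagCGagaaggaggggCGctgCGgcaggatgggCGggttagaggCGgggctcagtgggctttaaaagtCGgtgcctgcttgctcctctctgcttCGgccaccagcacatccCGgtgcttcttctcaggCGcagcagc
Zdbf2 upstream start (chr1:63200108-63200407, + strand): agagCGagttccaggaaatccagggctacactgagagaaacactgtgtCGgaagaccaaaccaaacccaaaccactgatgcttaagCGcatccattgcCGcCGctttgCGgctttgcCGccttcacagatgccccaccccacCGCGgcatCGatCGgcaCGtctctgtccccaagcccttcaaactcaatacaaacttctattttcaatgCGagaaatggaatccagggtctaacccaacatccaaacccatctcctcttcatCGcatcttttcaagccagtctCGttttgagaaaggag
Zdbf2 downstream start (chr1:63273019-63273318, + strand): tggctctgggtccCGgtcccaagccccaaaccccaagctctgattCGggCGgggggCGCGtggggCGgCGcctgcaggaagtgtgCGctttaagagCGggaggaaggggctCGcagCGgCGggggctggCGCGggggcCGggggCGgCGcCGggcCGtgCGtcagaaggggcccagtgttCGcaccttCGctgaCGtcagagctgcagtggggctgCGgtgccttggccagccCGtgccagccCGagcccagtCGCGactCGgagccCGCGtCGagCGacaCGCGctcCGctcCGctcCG
Grb10 (chr11:12037371-12037670, - strand): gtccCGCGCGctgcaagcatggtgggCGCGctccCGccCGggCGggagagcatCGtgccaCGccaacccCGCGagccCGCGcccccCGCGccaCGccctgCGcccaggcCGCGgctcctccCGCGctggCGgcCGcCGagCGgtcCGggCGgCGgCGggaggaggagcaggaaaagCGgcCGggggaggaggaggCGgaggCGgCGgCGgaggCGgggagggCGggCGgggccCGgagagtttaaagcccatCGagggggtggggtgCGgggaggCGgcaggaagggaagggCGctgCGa
Zrsr1 (chr11:22971755-22972054, + strand): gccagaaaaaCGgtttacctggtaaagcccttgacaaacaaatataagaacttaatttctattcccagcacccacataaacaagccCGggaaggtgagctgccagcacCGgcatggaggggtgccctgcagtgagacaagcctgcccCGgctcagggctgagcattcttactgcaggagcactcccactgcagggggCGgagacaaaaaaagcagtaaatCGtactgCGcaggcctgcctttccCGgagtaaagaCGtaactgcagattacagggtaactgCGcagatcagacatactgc
The Mest window shown held 17 CG and 2 matches to the hexamer. Another Mest window, which begins at base 30733256 of chromosome 6, held 8 CG and 0 matches. The 2 Zdbf2 windows, at alternative starts of the same gene, differed: the upstream one held 15 CG and 3 matches, and the downstream one 38 CG and 0 matches. The Grb10 window was the densest of those shown, with 45 CG and 1 match. Another Grb10 window, which begins at base 12027922 of chromosome 11, held 9 CG and 0 matches. The Zrsr1 window held 10 CG and 0 matches. Of the genes whose windows are not shown, Asb4 spans bases 5383386 to 5433022 of chromosome 6, Plagl1 bases 13090832 to 13131694 of chromosome 10, Usp29 bases 6730559 to 6967220 of chromosome 7 and Phlda2 bases 143501545 to 143503145 of chromosome 7, per RefSeq on GRCm38.

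Total counts per library ran from 7656108 to 9805287. Levels are given as CPM, read counts scaled to library size with TMM factors, and a floor of 3 counts is 0.301 to 0.394 CPM depending on the library. Such floors reflect counting error alone, because reads were not tied to single molecules by identifiers. The summed level of 16 oocyte markers was 498 and 227 CPM in SAF-TF, 494 and 2830 CPM in SAF-WT, 21004 and 16483 CPM in PF-TF, and 7768 and 7266 CPM in PF-WT. The summed level of 10 luteal markers was 37570 and 26879 CPM in SAF-TF, 4144 and 3426 CPM in SAF-WT, 1709 and 2941 CPM in PF-TF, and 772 and 1057 CPM in PF-WT. The luteal list shares the steroidogenic genes Lhcgr, Star, Cyp11a1 and Hsd3b1 with the theca list used below, so their marker counts are not separate. No oocyte, granulosa, theca or luteal marker was at 0 in both libraries of a group. In whole follicles, fewer cells of a type and less RNA per cell cannot be told apart.

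Most imprinted genes were detected, at levels that spanned a wide range. Every library had at least 1 count of all but 8 of the 46 members, namely Igf2, Zim1, Dlk1, Mirg, Dio3, Phlda2, Slc22a18 and Sfmbt2. Per kilobase of exon, the highest mean of the 4 groups was 81.5 CPM per kb for Cd81, which encodes a membrane tetraspanin. It was followed by 53.4 CPM per kb for Gnas, which encodes the stimulatory G protein subunit, 51.6 for Commd1, a copper and endosome regulator, 47.5 for Mcts2 and 41.6 for Nnat, a small membrane proteolipid. A test needed about 10 counts at the median depth in at least 2 libraries, whatever the total. Below this minimum stood 4 members, the growth factor gene Igf2 with 59 counts over all 8 libraries, Mkrn3 with 57, the thyroid hormone deiodinase gene Dio3 with 45 and the noncoding Mirg with 15. The other 42 were tested.

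Among small antral follicles, the imprinted genes that passed the test were more often lower than higher in those from transplanted FGSCs. Of 42 tested members, 2 were higher and 6 lower in SAF-TF than in SAF-WT by the edgeR quasi-likelihood test with Benjamini-Hochberg adjusted p at most 0.05 over 17925 genes. Of all genes tested 9.96% passed, 4.61% higher and 5.34% lower. The median log2 fold change was -0.07 over the members and 0.00 over all genes.

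Of the 6 lower members, 3 are maternally and 3 paternally expressed. Asb4, a maternally expressed ubiquitin ligase subunit, stood at 3.08 and 2.82 CPM in SAF-TF, against 28.6 and 33.1 CPM in SAF-WT (log2 fold change -3.38 ± 0.44 (SE), adjusted p = 0.0043). The WT libraries were the 2 highest of the 8. Mest, a paternally expressed hydrolase of mesoderm and fat, stood at 7.04 and 5.98 CPM in SAF-TF, against 23.6 and 45.0 CPM in SAF-WT (-2.40 ± 0.41, adjusted p = 0.0104). Zdbf2, a paternally expressed zinc finger gene, stood at 1.32 and 2.14 CPM in SAF-TF, against 8.95 and 12.8 CPM in SAF-WT (-2.64 ± 0.53, adjusted p = 0.0183). For all 6 lower members, both SAF-TF libraries lay below both SAF-WT libraries. This held for 16 of the 42 tested members and 32.5% of all genes tested, while 9 members and 31.3% of genes lay above. Grb10, an adaptor that dampens insulin and growth factor receptor signalling, stood at 37.0 and 26.7 CPM in SAF-TF, against 106 and 90.6 CPM in SAF-WT (-1.62 ± 0.41, adjusted p = 0.0392). Plagl1, a zinc finger transcription factor that restrains proliferation, stood at 40.7 and 52.9 CPM in SAF-TF, against 130 and 127 CPM in SAF-WT (-1.46 ± 0.28, adjusted p = 0.0163). Commd1 was the smallest of the changes, with 245 and 292 CPM in SAF-TF, against 457 and 444 CPM in SAF-WT (-0.75 ± 0.18, adjusted p = 0.0348).

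The 2 higher members were of opposite class. Dlk1, a paternally expressed Notch-like ligand that holds back differentiation, had 56 counts in the 2 SAF-TF libraries and 0 counts in both SAF-WT libraries, 3.96 and 2.26 CPM in SAF-TF. The mean of the 2 SAF-TF libraries was 8.88 times a floor of 3 counts per SAF-WT library (adjusted p = 0.0381 for the source effect). The spread between the SAF-TF libraries does not enter this ratio. H13, a maternally expressed signal peptide peptidase, stood at 222 and 132 CPM in SAF-TF, against 89.7 and 92.4 CPM in SAF-WT (0.96 ± 0.25, adjusted p = 0.0436). H13 spread widely between the SAF-TF libraries, and its log2 fold change was 0.25 (adjusted p = 0.541) with a correction for GC content and length, 0.23 (adjusted p = 0.539) with that and the replicate number as a block, and 0.55 (adjusted p = 0.358) without SAF-TF replicate 1. Its call was also lost with RLE factors, and that of Dlk1 with DESeq2, the filter at 10 CPM and the GC and length correction. Markers moved between these groups as well, with 10 of 10 luteal, 5 of 9 macrophage, 2 of 12 granulosa and 1 of 9 surface epithelium markers higher in SAF-TF. Of 9 theca markers 4 were higher and 4 lower, of 10 stroma markers 1 was higher and 3 lower, and 2 of 16 oocyte and 2 of 8 endothelium markers were lower. The luteal and theca lists share genes, as given above, and the part of all these markers in the imprinted genes' values was not tested. With one library left out, Asb4 was the only member that kept its call each time, and 1 member passed without SAF-TF replicate 1, 4 without SAF-TF replicate 2, 2 without SAF-WT replicate 1 and 1 without SAF-WT replicate 2. With the replicate number as a block, 5 of the 8 passed, and Commd1, H13 and Dlk1 did not.

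**Figure D1:**
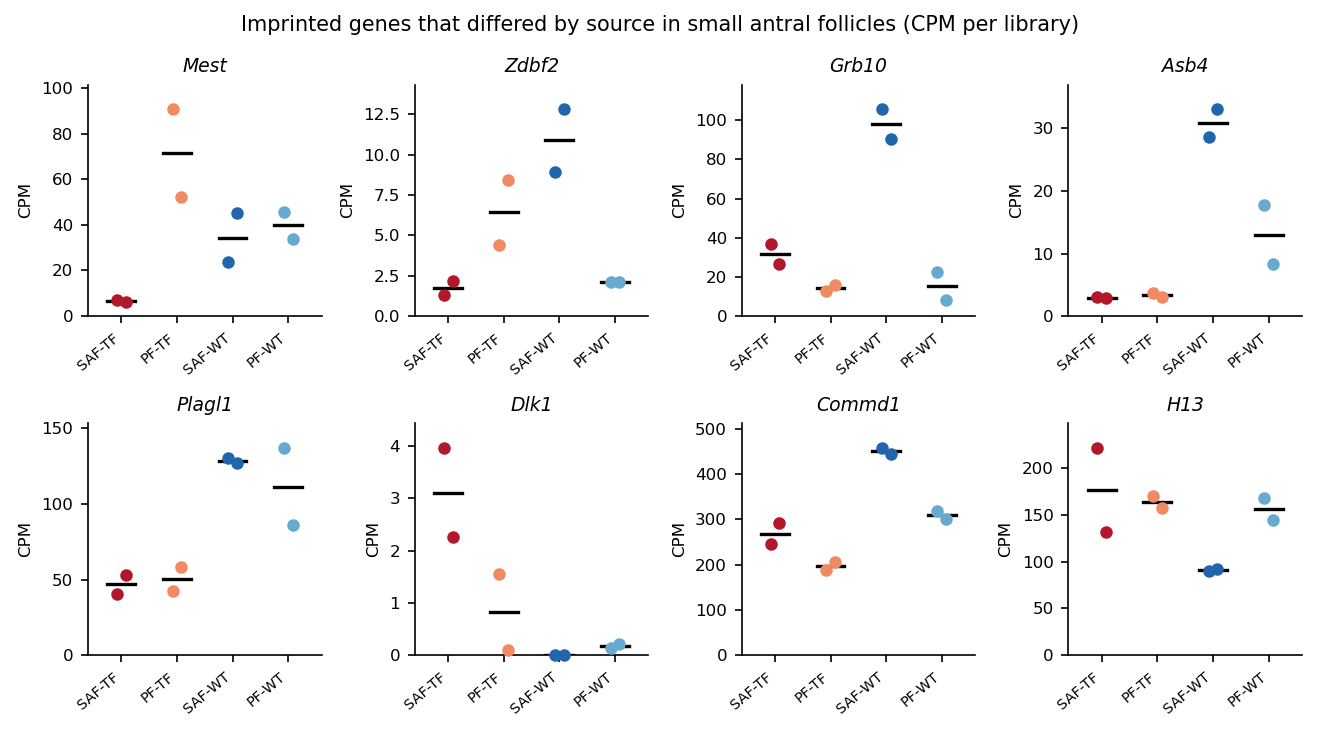
Levels in CPM per library for the 8 imprinted genes that passed between SAF-TF and SAF-WT, in the 4 groups, with points for libraries and a bar at the mean of 2. Asb4 stands at 28.6 and 33.1 CPM in SAF-WT, above every other library.

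Among preantral follicles, no imprinted gene passed the test between sources. The count was 0 of 42, against 0.218% of all genes tested, 0.0669% higher and 0.151% lower. At an unadjusted p under 0.05 there were 15 members, 8 higher and 7 lower in PF-TF, against 20.7% of all genes. DESeq2 called 6 members, with Sgce higher and Asb4, Slc38a4, Commd1, Gab1 and Plagl1 lower in PF-TF, against 7.38% of all genes. Asb4 stood at 3.77 and 3.11 CPM in PF-TF and at 17.7 and 8.32 CPM in PF-WT, and Plagl1 at 42.2 and 58.3 CPM in PF-TF and at 137 and 85.9 CPM in PF-WT, so that for these genes both TF groups were below both WT groups. Without PF-WT replicate 2, 4 members passed, Sgce and Inpp5f higher and Asb4 and Plagl1 lower in PF-TF.

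The source effect of 2 members differed between stages. The interaction, the stage effect in TF minus the stage effect in WT, passed for 2 of 42 members, both lower, against 0.904% of all genes tested, of which 0.658% were higher and 0.245% lower. For Mest, PF-TF held 90.6 and 52.1 CPM and PF-WT 45.8 and 33.6 CPM, while SAF-TF held 7.04 and 5.98 CPM and SAF-WT 23.6 and 45.0 CPM. Mest fell with stage in TF (log2 fold change -3.45 ± 0.42, adjusted p = 0.000221), and its SAF-WT and PF-WT libraries overlapped. The difference of the stage effects was -3.24 ± 0.55 (adjusted p = 0.0316). For Zdbf2, PF-TF held 4.43 and 8.43 CPM and PF-WT 2.10 and 2.11 CPM, while SAF-TF held 1.32 and 2.14 CPM and SAF-WT 8.95 and 12.8 CPM. Zdbf2 was the only member called in opposite directions, lower with stage in TF (-1.89 ± 0.53, adjusted p = 0.0166) and higher with stage in WT (2.36 ± 0.52, adjusted p = 0.00742), with a difference of -4.25 ± 0.74 (adjusted p = 0.0345). The call of Zdbf2 in TF was lost without SAF-TF replicate 1 or PF-TF replicate 2. The authors' deposited table gave Zdbf2 log2 ratios of SAF over PF of -1.54 in TF and 2.71 in WT. It gave Mest -3.10 in TF and 0.13 in WT.

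Neither difference passed with the replicate number as a block (adjusted p = 0.0586 for Mest and 0.0528 for Zdbf2). Over the 8 fits that each left out 1 library, Mest ranged from -3.63 to -2.70 and passed without PF-TF replicate 2, SAF-WT replicate 1, PF-WT replicate 1 and PF-WT replicate 2, and Zdbf2 ranged from -4.63 to -3.61 and passed without PF-TF replicate 1 and PF-TF replicate 2. Zdbf2 rests on few reads, between 12 and 108 counts per library. Markers passed the interaction test as well, with 6 of 10 luteal, 4 of 9 macrophage, 2 of 9 theca and 1 of 8 smooth muscle markers higher and 2 of 16 oocyte markers lower, and their part in both genes' values was not tested.

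Between stages, the share of imprinted genes that passed the test was near that of all genes in WT and below it in TF. In TF, 6 members were higher and 7 lower in SAF-TF than in PF-TF, 31.0% of 42, against 43.2% of all genes tested, of which 18.2% were higher and 25% lower. In WT, 10 members were higher in SAF-WT than in PF-WT and 5 were lower, 35.7% of 42, against 35.1% of all genes tested, of which 12.7% were higher and 22.5% lower. Scaling moved this balance: with the authors' scale factors 8 members were higher and 6 lower in TF and 12 and 4 in WT, while the share of higher genes among all called genes was 56.2% in place of 42.1% in TF and 53.5% in place of 36.0% in WT. The median log2 fold change over all genes moved with it, to 0.27 with those factors and -0.08 with TMM in TF, and to 0.14 and -0.20 in WT.

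Calls in both sources covered 9 members, with 6 higher and 3 lower with stage, and another 24 passed in neither. Of the higher ones, Airn, the noncoding antisense RNA of the Igf2r domain, stood at 13.3 and 15.5 CPM in SAF-TF and 6.53 and 5.12 CPM in PF-TF (1.30 ± 0.37, adjusted p = 0.019), and at 27.5 and 16.1 CPM in SAF-WT and 6.83 and 6.88 CPM in PF-WT (1.67 ± 0.38, adjusted p = 0.00783). All SAF libraries were above all PF libraries, as within a source for 34.8% of all genes tested in TF and 30.9% in WT. The call of Airn in TF was lost without SAF-TF replicate 1, SAF-TF replicate 2 or PF-TF replicate 2. In WT its call was lost without SAF-WT replicate 1. Grb10 stood at 37.0 and 26.7 CPM in SAF-TF and 12.6 and 15.7 CPM in PF-TF (1.17 ± 0.42, adjusted p = 0.0455), and at 106 and 90.6 CPM in SAF-WT and 22.5 and 8.21 CPM in PF-WT (2.68 ± 0.43, adjusted p = 0.00148). Its call in TF was lost with the replicate block and in each of the 4 fits that left out a TF library. Impact, a regulator of the eIF2 kinase GCN2, stood at 45.5 and 38.7 CPM in SAF-TF and 14.7 and 15.9 CPM in PF-TF (1.46 ± 0.25, adjusted p = 0.00141), and at 44.5 and 43.6 CPM in SAF-WT and 23.6 and 24.2 CPM in PF-WT (0.88 ± 0.25, adjusted p = 0.0205). Gab1, a docking protein of receptor tyrosine kinases, stood at 35.3 and 30.2 CPM in SAF-TF and 7.53 and 13.7 CPM in PF-TF (1.62 ± 0.33, adjusted p = 0.00333), and at 43.6 and 47.9 CPM in SAF-WT and 23.4 and 22.0 CPM in PF-WT (1.01 ± 0.32, adjusted p = 0.0328). The call of Gab1 in WT was lost when any single WT library was left out. That of Impact in WT was lost without SAF-WT replicate 1, SAF-WT replicate 2 or PF-WT replicate 2. The retrogenes Zrsr1 and Mcts2 were the others.

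Of the 3 lower members, Usp29 and Phlda2 had the largest stage effects of all called members in both sources. Usp29, a paternally expressed ubiquitin peptidase of the Peg3 domain, stood at 0.220 and 0.338 CPM in SAF-TF and 22.2 and 15.2 CPM in PF-TF (-5.99 ± 0.60, adjusted p = 7.75e-05), and at 0.574 and 0.355 CPM in SAF-WT and 8.27 and 5.44 CPM in PF-WT (-3.84 ± 0.56, adjusted p = 0.000903). Phlda2, a maternally expressed restraint on placental growth, stood at 0.440 and 0.113 CPM in SAF-TF and 9.97 and 14.9 CPM in PF-TF (-5.41 ± 1.13, adjusted p = 0.00404), and at 0 and 0.474 CPM in SAF-WT and 1.58 and 9.99 CPM in PF-WT (-4.56 ± 1.16, adjusted p = 0.0138). In small antral follicles both genes were near the floor. The call of Phlda2 in WT was lost without SAF-WT replicate 1 or PF-WT replicate 2. Blcap, which hosts Nnat in an intron, stood at 19.2 and 19.3 CPM in SAF-TF and 79.1 and 66.9 CPM in PF-TF (-1.92 ± 0.25, adjusted p = 0.000305), and at 22.4 and 22.4 CPM in SAF-WT and 52.5 and 42.2 CPM in PF-WT (-1.08 ± 0.24, adjusted p = 0.00795). Its effect in WT was -0.66 with the GC and length correction (adjusted p = 0.0849) and -0.65 with that and the block (adjusted p = 0.104), and the call was lost without SAF-WT replicate 1, SAF-WT replicate 2 or PF-WT replicate 1. Oocyte markers fell with stage too, 15 of 16 in TF and 9 of 16 in WT, and 5 of 12 granulosa markers fell in WT, against 2 lower and 1 higher in TF. In TF, 10 of 10 luteal, 9 of 9 macrophage, 9 of 10 stroma, 7 of 8 smooth muscle, 6 of 9 theca and 4 of 8 endothelium markers rose, and of 9 surface epithelium markers 7 rose and 1 fell. In WT, 9 of 9 theca, 5 of 10 luteal, 5 of 8 smooth muscle and 0 of 9 macrophage markers rose, while of 10 stroma markers 9 rose and 1 fell, of 8 endothelium markers 4 rose and 1 fell, and of 9 surface epithelium markers 4 rose and 1 fell. The part of these markers in the imprinted genes' values was not tested.

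**Figure D2:**
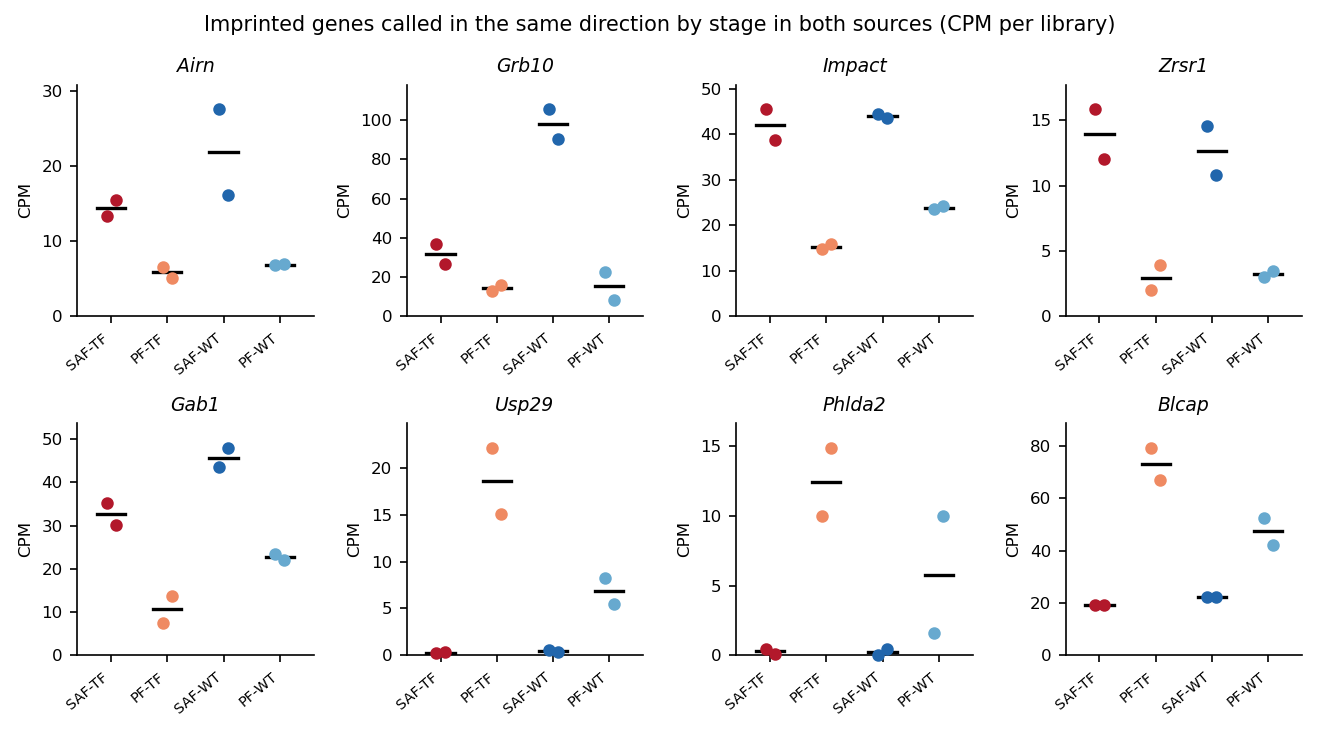
Levels in CPM per library for 8 of the 9 imprinted genes called in the same direction with stage in both sources, with points for libraries and a bar at the mean of 2. In the top row and Gab1 both SAF groups lie above the PF groups, and for Usp29, Phlda2 and Blcap below them.

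The other calls were made in 1 source, and no interaction passed the edgeR test for any of them but Mest. DESeq2 called the interaction for Nnat and Sgce as well, both lower, and no other fit of all libraries did. Called in TF alone were Nnat (22.7 and 34.9 CPM in SAF-TF, 175 and 80.7 CPM in PF-TF; -2.15 ± 0.40, adjusted p = 0.00218) and the coatomer subunit gene Copg2 (-0.93 ± 0.27, adjusted p = 0.0207), besides Mest. Called in WT alone were Sgce (94.8 and 66.4 CPM in SAF-WT, 26.7 and 46.1 CPM in PF-WT; 1.15 ± 0.30, adjusted p = 0.0154), which encodes epsilon-sarcoglycan, Asb4 (1.25 ± 0.40, adjusted p = 0.0352) and Commd1 (0.54 ± 0.18, adjusted p = 0.044), all higher with stage, and the vesicle tethering gene Trappc9 (4.36 and 7.11 CPM in SAF-WT, 23.1 and 18.8 CPM in PF-WT; -1.87 ± 0.45, adjusted p = 0.011) and H13 (-0.78 ± 0.25, adjusted p = 0.0362), both lower. The effect of H13 was -0.25 with the GC and length correction (adjusted p = 0.404), -0.24 with that and the block (adjusted p = 0.389), -0.44 with the authors' scale factors (adjusted p = 0.178) and -0.63 with RLE factors and with DESeq2 (adjusted p = 0.0843 and 0.0825), so that the call was lost in each. Commd1 lost its call with no low-count filter, in the fit of only the libraries compared and with the block, and Copg2 lost its call in TF with the GC and length correction and when scaled by the authors' factors. Without SAF-WT replicate 1 only Usp29, Grb10, Mcts2 and Zdbf2 of the 15 passed in WT, and without SAF-WT replicate 2 there were 9.

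Of the 42 tested members, 22 are paternally and 19 maternally expressed, and both classes held calls in either direction with stage. In TF, 5 paternally expressed members were higher and 4 lower, and 1 maternally expressed member was higher and 3 lower, against 18.2% of all genes higher and 25% lower. In WT, 7 paternally expressed members were higher and 1 lower, and 3 maternally expressed ones were higher and 4 lower, against 12.7% of all genes higher and 22.5% lower. The paternal median log2 fold change in TF was 0.50, but -0.06 with the filter at 10 CPM, 0.17 without SAF-TF replicate 1, 0.14 without SAF-TF replicate 2 and 0.85 with the authors' scale factors. The maternal median in TF was -0.24, but 0.12 with the authors' scale factors, where 3 maternal members were higher and 2 lower, and 0.03 without PF-TF replicate 1. In WT the medians were 0.32 for the paternal and -0.53 for the maternal class, against -0.20 over all genes. The paternal median in WT was 0.67 with the authors' scale factors and 0.75 without PF-WT replicate 2. The maternal one was -0.17 with the filter at 10 CPM, -0.19 with the authors' scale factors and -0.73 without SAF-WT replicate 2. Without SAF-WT replicate 1, the WT counts were 2 higher and 1 lower in the paternal class and 1 higher and 0 lower in the maternal class. Between sources in SAF each class had 1 higher and 3 lower. The difference between classes was not tested.

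**Figure D3:**
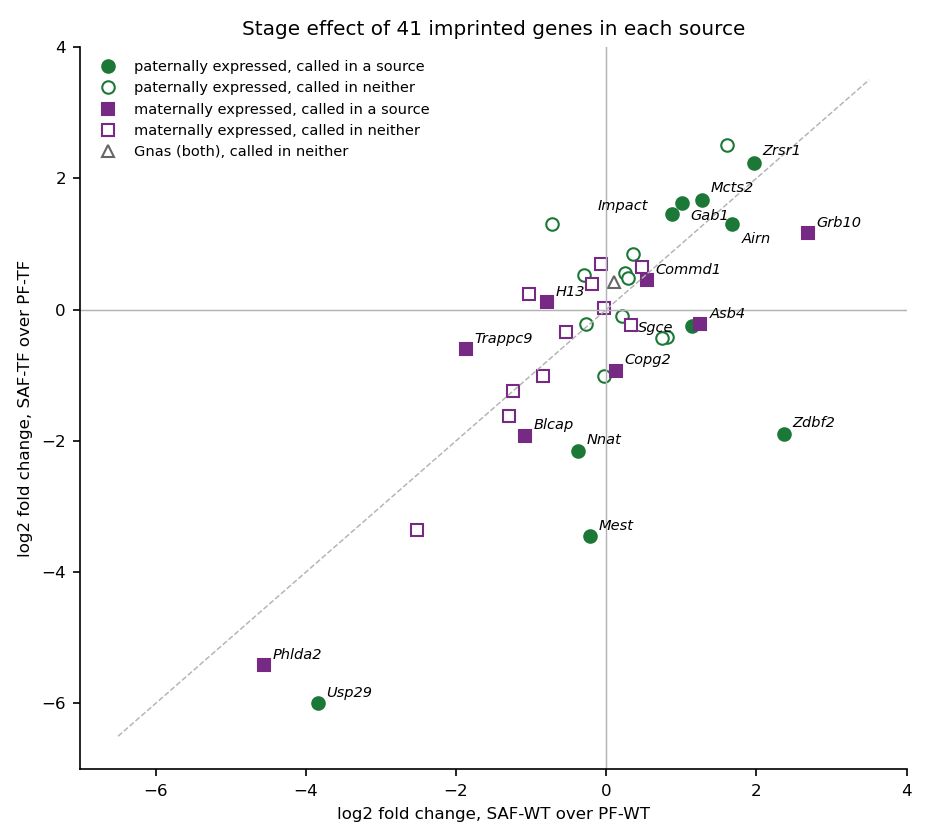
Log2 fold change with stage in TF (vertical axis) against that in WT (horizontal axis) for 41 tested imprinted genes, where the dashed line marks equal change and filled symbols passed in at least 1 source. Dlk1 is left out because SAF-WT had 0 counts of it, and Zdbf2 lies at -1.89 in TF and 2.36 in WT.

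Genes that share a locus are given side by side, and no difference between neighbours was tested. Nnat lies in an intron of Blcap on the opposite strand, and the count of Nnat over Blcap was 1.18 and 1.81 in SAF-TF libraries, 2.21 and 1.21 in PF-TF libraries, 2.27 and 3.48 in SAF-WT libraries and 1.38 and 2.23 in PF-WT libraries. Replicates of this ratio differed widely, and both genes fell with stage in TF. Igf2r, the receptor that clears IGF2, stood at 9.57 and 8.35 CPM in SAF-TF, 14.3 and 8.53 CPM in PF-TF, 5.51 and 8.53 CPM in SAF-WT and 9.19 and 11.1 CPM in PF-WT and passed in no comparison. Its antisense Airn was higher with stage in both sources, as given above. Kcnq1ot1, the noncoding RNA of another domain, stood at 58.5 and 98.1 CPM in SAF-TF, 12.5 and 93.6 CPM in PF-TF, 59.8 and 68.7 CPM in SAF-WT and 60.1 and 47.7 CPM in PF-WT and passed in none. The PF-TF libraries were the lowest and the second highest of the 8. Kcnq1, its host on the opposite strand and no member, fell with stage in both sources (-5.34 ± 0.97, adjusted p = 0.00198 in TF, and -3.15 ± 0.92, adjusted p = 0.025 in WT). Peg13 stood between 4.47 and 9.13 CPM in all libraries and passed in none, and its host Trappc9 fell in WT.

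Several of these counts may hold reads of another gene, since the strand setting of the counting is not given in the sources used here. Mest and Copg2 overlap tail to tail over 912 exon bases, which is 23.1% of Mest and 17.8% of Copg2, and both were lower with stage in TF, so Copg2 is uncertain. Zrsr1 lies inside Commd1 on the opposite strand and shares 412 exon bases with it, 6.94% of Commd1 and 9.17% of Zrsr1. Commd1 held 1696 to 3981 counts per library, against 18 to 144 for Zrsr1. The part of Commd1 reads in the Zrsr1 counts was not tested. Usp29 shares 2582 exon bases, 14.3% of its length, with Zim3 on the opposite strand, and Zim3 fell with stage as well (-5.30 ± 0.96, adjusted p = 0.00195 in TF, and -4.31 ± 0.97, adjusted p = 0.00777 in WT). Snurf, which shares transcripts with Snrpn, had 0.981 to 1 times the count of Snrpn in each library.

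The retrogenes Zrsr1 and Mcts2 arose as copies of X-linked parent genes, and their counts related to those of the parents in different ways. Zrsr1 stood at 15.8 and 12.1 CPM in SAF-TF and 1.99 and 3.91 CPM in PF-TF (2.23 ± 0.45, adjusted p = 0.00338), and at 14.6 and 10.8 CPM in SAF-WT and 3.02 and 3.44 CPM in PF-WT (1.97 ± 0.45, adjusted p = 0.00841). Its parent Zrsr2 did not pass in either source (0.02 ± 0.22, adjusted p = 0.945 in TF, and 0.18 ± 0.22, adjusted p = 0.555 in WT), and the count ratio of Zrsr1 over Zrsr2 ran from 0.0432 to 0.350. Mcts2 also rose with stage (1.67 ± 0.23, adjusted p = 0.00043 in TF, and 1.28 ± 0.23, adjusted p = 0.00239 in WT), but so did its parent Mcts1 (1.50 ± 0.19, adjusted p = 0.000276 in TF, and 1.20 ± 0.19, adjusted p = 0.00135 in WT). The ratio of Mcts2 over Mcts1 stayed between 0.263 and 0.339 in all 8 libraries, so reads of both copies may not have been told apart and Mcts2 is uncertain.

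**Figure D4:**
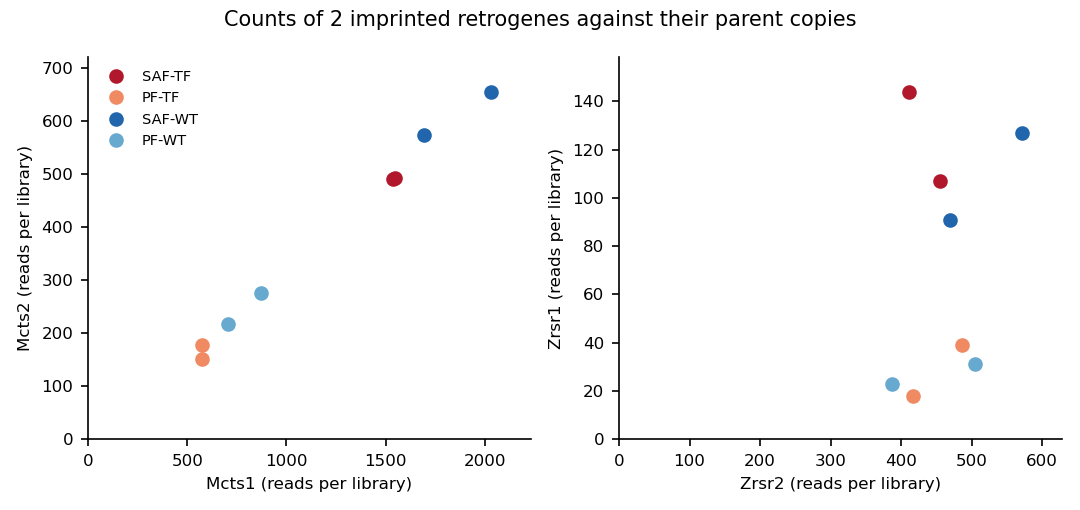
Reads per library of Mcts2 against its parent Mcts1 (left) and of Zrsr1 against its parent Zrsr2 (right), 1 point per library in the colour of its group. Mcts2 keeps 0.263 to 0.339 times the reads of Mcts1, while Zrsr1 runs from 0.0432 to 0.350 times those of Zrsr2.

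The other domains held few or no calls. Of the Snrpn domain 4 members were tested, and none passed in any comparison. Snrpn, a core splicing factor, stood at 43.9 and 31.6 CPM in SAF-TF, 42.0 and 46.3 CPM in PF-TF, 34.1 and 33.1 CPM in SAF-WT and 29.4 and 51.6 CPM in PF-WT. Groups overlapped in every comparison. Peg3, a zinc finger gene in the domain of Usp29, stood between 3.15 and 11.4 CPM and passed in none, so Usp29 was the only called gene of 3 tested there. H19, the noncoding RNA beside Igf2, stood between 0.564 and 5.33 CPM, and Meg3, the noncoding RNA beside Dlk1, between 2.98 and 19.4 CPM with wide spread between replicates, and neither passed. Gnas stood at 948 and 559 CPM in SAF-TF, 653 and 476 CPM in PF-TF, 577 and 536 CPM in SAF-WT and 390 and 644 CPM in PF-WT, and passed in none. Of 6 tested members of the Kcnq1ot1 domain, only Phlda2 passed.

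In all, 20 of the 42 tested members passed in at least 1 comparison and 22 in none, while 53.6% of all genes tested passed in at least 1. Among those 22, the ubiquitin ligase gene Ube3a ran from 136 to 186 CPM over the 8 libraries. Cdkn1c, a cell cycle inhibitor, ran from 5.88 to 15 CPM, the retrotransposon-derived Peg10 from 3.61 to 13 CPM and Ndn, a melanoma antigen family gene, from 10.8 to 44.5 CPM. Slc38a4, an amino acid transporter gene, ran from 3.99 to 17.6 CPM and was closest to a call between sources in SAF (adjusted p = 0.0506). It stood at 4.18 and 6.99 CPM in SAF-TF, against 16.7 and 16.2 CPM in SAF-WT. With RLE factors, the filter at 10 CPM, DESeq2 and the fit of only the libraries compared, Slc38a4 was called lower in SAF-TF. The other alternatives did not call it. Inpp5f ran from 10.1 to 42.3 CPM, Osbpl5 from 9.24 to 39.7 CPM, Ppp1r9a from 21.9 to 47.0 CPM and Rian from 1.72 to 6.09 CPM. Zim1, Peg12, Slc22a18 and Sfmbt2 stayed at or under 2.61 CPM in every library, too few reads for a firm statement.

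**Figure D5:**
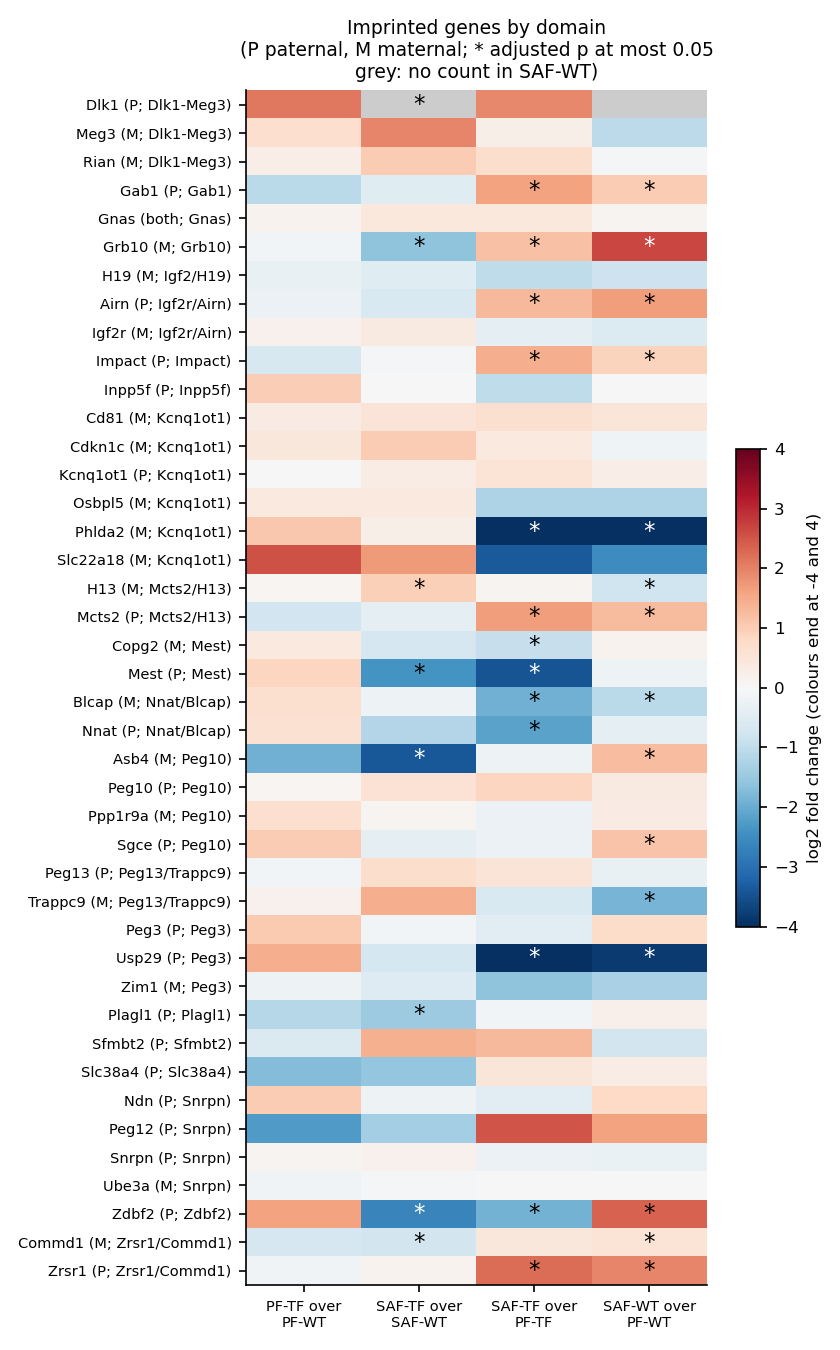
Log2 fold change of the 42 tested imprinted genes (rows, with P or M for the paternally or maternally expressed copy and the domain) in 4 comparisons (columns), with colours limited at -4 and 4 and an asterisk where the adjusted p was at most 0.05. The column of the source effect in PF has no asterisk, and grey marks Dlk1 where SAF-WT had 0 counts.

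Of 18 genes listed for the writing, upkeep or removal of imprints, 0 were higher and 8 lower with stage in TF. Of all genes, 18.2% were higher and 25% lower. In WT, 1 of the 18 was higher and 7 were lower, against 12.7% of all genes higher and 22.5% lower. The list includes the demethylation genes Tet1, Tet2 and Tet3. The higher gene in WT was Tet2 (1.24 ± 0.39, adjusted p = 0.0336). Tet3 was among the lower genes in TF (-2.64 ± 0.23) and in WT (-2.15 ± 0.23). Dnmt1, the maintenance methyltransferase, stood at 35.6 and 27.4 CPM in SAF-TF and 958 and 671 CPM in PF-TF (-4.69 ± 0.35, adjusted p = 2.11e-05), and at 28.3 and 50.1 CPM in SAF-WT and 270 and 336 CPM in PF-WT (-2.95 ± 0.32, adjusted p = 0.000199). Dnmt3l, the partner of the methyltransferase that writes imprints in the oocyte, stood at 2.31 and 1.24 CPM in SAF-TF and 39.8 and 41.2 CPM in PF-TF (-4.50 ± 0.43, adjusted p = 6.47e-05), and at 1.72 and 3.20 CPM in SAF-WT and 40.8 and 32.3 CPM in PF-WT (-3.89 ± 0.42, adjusted p = 0.000187). Zfp57, which guards imprints in the embryo, fell to 5.51 and 19.6 CPM in SAF-WT, against 629 and 280 CPM in PF-WT (-5.18 ± 0.67, adjusted p = 0.000487).

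Between sources, 2 of the 18 were lower in SAF-TF than in SAF-WT, against 5.34% of all genes, and 0 passed in PF, where 0.218% of all genes did. Dppa3, a maternal factor that shields methylated DNA in the zygote, stood at 94.8 and 70.3 CPM in SAF-TF, against 274 and 900 CPM in SAF-WT (-2.83 ± 0.50, adjusted p = 0.0115). Kdm1b, the histone demethylase that clears the way for oocyte imprints, stood at 15.4 and 12.9 CPM in SAF-TF, against 31.4 and 43.2 CPM in SAF-WT (-1.40 ± 0.38, adjusted p = 0.0472), and its interaction passed as well (-2.93 ± 0.53, adjusted p = 0.038). Several of these genes are known from oocytes, whose marker sums fell with stage as given above, and the part of oocyte content in their values was not tested.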

How the data were processed

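RNA-seq of 8 follicle libraries was analysed from 2 deposited tables, 1 for TF and 1 for WT. The submitters' processing notes name HISAT2 2.0.1 and GRCm38. The counter, annotation and strand setting were not given in the sources used here. Per the file headers, the authors gave raw counts per gene and library, a normalized signal per group, a log2 ratio of SAF over PF and its FDR, an adjusted p-value of a test that is not named. Scale factors were set within each table by the authors, so they could not scale TF against WT, and the counts of shared genes were fitted together.

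Genes were kept by filterByExpr (min.count 10, min.total.count 15), which left 17925. Tests were edgeR quasi-likelihood tests (version 4.0.16 under R 4.3.3), in which TMM scaled the libraries and each group had 1 mean, leaving 4 residual degrees of freedom. The biological coefficient of variation was 0.303. P-values were adjusted by Benjamini-Hochberg across every tested gene, and a standard error is the log2 fold change over the root of its F statistic. The test was checked on simulated data. Promoter windows and positions came from RefSeq, and exon lengths from GENCODE. Named were members with adjusted p at most 0.05, 1 gene for each main domain, overlapping pairs and up to 6 genes of the imprint upkeep list per comparison; Sgce, Slc38a4, Gab1, Plagl1, Asb4, Commd1 and Inpp5f in PF, and the neighbours and parent copies Kcnq1, Zim3, Snurf, Mcts1 and Zrsr2, were chosen after their values were seen. Members, allele classes and lists were chosen with earlier results of these data known. Alternatives were RLE factors, the authors' scale factors (within a source and for the interaction), other filters, DESeq2 1.42.0, a replicate block, fits of the compared libraries alone, a correction for GC content and length, and leaving out each library.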

Additional observations from a re-analysis of the deposited data

Results flagged for a closer look

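The stage effect of 2 imprinted genes differed between sources by the test of the difference itself, edgeR's interaction term. For Mest the log2 fold change with stage in TF minus that in WT was -3.24 (adjusted p = 0.0316), with both SAF-TF libraries below the other 6. For Zdbf2 the difference was -4.25 (adjusted p = 0.0345), with lower levels in SAF-TF than in PF-TF and higher levels in SAF-WT than in PF-WT in every library.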

How the results depend on the processing

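Called members kept their direction under every alternative run, and many lost significance when a library was left out. Members called between sources in PF were 0 higher and 0 lower in each alternative except DESeq2 (1 higher, 5 lower) and the leave-one-out fits (0 to 2 higher, 0 to 2 lower). In SAF, members higher numbered 1 with RLE factors and with the filter at a group mean of 10 CPM, and 5 in the fit of only the libraries compared. They numbered 0 with the replicate block, with the GC and length correction and with both. Members lower in SAF numbered 7 with RLE factors, with that filter and with the GC and length correction. They numbered 8 with DESeq2 and in the fit of only the libraries compared, 5 with the block and 6 with block and correction. Leaving out 1 library gave 0 to 1 higher and 1 to 3 lower. With stage in TF the leave-one-out counts were 4 to 6 higher and 5 to 6 lower. In WT they were 3 to 8 and 1 to 4, and 3 were lower with the GC and length correction, with or without the block. Interaction calls were 4 lower with DESeq2, 0 with the block and 1 with the block and the GC and length correction, with leave-one-out counts of 0 to 1 higher and 0 to 2 lower. The stage effect of Mest in WT, not called at -0.21, was 0.13 with the authors' scale factors, 0.092 with the GC and length correction and 0.14 with that and the block, and ran from -0.75 to 0.18 with 1 library left out; the cause was not tested. Deviations of same-numbered libraries correlated at -0.12 to 0.11, which cannot show whether the numbers pair the follicles, and the labels do not say. Under the block, calls went to 12 of 13 with stage in TF and 14 of 15 in WT. The block with the PF-WT numbers crossed, added after seeing the data, called 0 members in PF, with 11 genes higher and 26 lower. With the filter at 10 CPM, 33 members were tested. With 2 libraries per group, leaving out 1 left a lone library assumed to vary like the other groups. Genes of few reads, such as Zdbf2, Dlk1 and Phlda2, are limited by depth.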
